A study of Mus musculus with 6 samples.

Results

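The core histone genes of the replication-dependent kind were examined in mouse platelets that carry a mutation in the mRNA export gene Nxf1. Members were the listed genes whose Entrez identifier maps to H2ac, H2bc, H3c or H4c followed by a number, or to an older Hist1h to Hist4h name of these classes, without linker H1 histones and replacement variants. The rule found 44 of the 9822 genes listed in every count file: 14 H2A, 16 H2B, 5 H3 and 9 H4 genes. Annotation holds 64 genes that fit the rule, and the other 20 were not listed, so they have no value here. The authors' choice of genes to list was not given in the sources used here, and every count below is over the 44 listed genes. H4bc24 is an H2B gene by its older name, Hist1h2br, and was placed there. H2aw (Hist3h2a) and the transcribed pseudogene H2af-ps2 (Hist1h2al) entered by their older names.

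The mutant group comprised 3 pools of purified platelets from Nxf1+/C587R males, and the other group 3 pools from wild-type males, all of the BalB/c background. The mutants were heterozygous, so each mutant cell kept 1 wild-type copy of the gene. Each pool joined suspensions of 1 genotype that had passed a flow cytometry check for the platelet protein CD41. The pools came from 3 preparation days, called batches 1 to 3 in the labels, with 1 mutant and 1 wild-type pool in each. The wild-type pools also belong to another series, and the number of animals per pool was not given in the sources used here. Therefore the p-values below measure the spread between pools. The labels name polyA RNA as the molecule sequenced. Totals ran between 25189231 and 29421549 counts per library, and core histone genes took 0.374, 0.393 and 0.375% of the counts in mutant batches 1, 2 and 3, against 0.358, 0.353 and 0.358% in wild-type batches 1, 2 and 3. The libraries of batch 1 stood apart from the others of their genotype, with a mean chi-square per gene, which compares the counts of a pair of libraries with sampling noise, of 85.1 and 86.6 in mutants and 99.7 and 104 in wild type, against 14.5 in mutants and 17.9 in wild type between batches 2 and 3.

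The core histones H2A, H2B, H3 and H4 form the protein spool around which DNA is wrapped. Their genes lie in clusters, mostly lack introns and are transcribed mainly while a cell copies its DNA. Their mRNAs are unusual in that most end in a conserved stem-loop in place of a polyA tail, although some of these genes also give polyadenylated transcripts in differentiated cells. Stem-loop binding protein, encoded by Slbp, holds that structure during processing and translation, and the export receptor encoded by Nxf1 carries histone mRNA out of the nucleus. Megakaryocytes copy their genome repeatedly without dividing and then release platelets, which have no nucleus and carry RNA inherited from the megakaryocyte.

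The stem-loop is shown first because it defines the kind of transcript. The motif GGNNCTTTNNAGNNCC was searched on the transcript strand in GENCODE transcripts of GRCm38. It stood in transcripts of 29 of the 44 members and in 302 of 141767 transcripts overall (0.213%). For some of the other members the annotated transcript ends with the coding sequence, so a missing match does not show that the stem-loop is absent. The 26 bases around the motif are given below for members the results turn on, with the motif in capitals. H2ac18 and H3c14 lie on the plus strand of chromosome 3, H2ac6, H4c9 and H4c3 on the minus strand of chromosome 13, and H2bc8 on its plus strand.
H2ac18: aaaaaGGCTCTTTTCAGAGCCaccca
H2ac6: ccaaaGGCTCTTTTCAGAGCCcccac
H2bc8: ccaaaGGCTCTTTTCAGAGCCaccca
H3c14: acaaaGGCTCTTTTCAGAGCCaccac
H4c9: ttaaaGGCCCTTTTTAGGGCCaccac
H4c3: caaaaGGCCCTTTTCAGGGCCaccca
The H2ac18, H2ac6, H2bc8 and H3c14 motifs share 1 core, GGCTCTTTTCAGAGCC, which 19 of the 29 members carried. The H4c3 core, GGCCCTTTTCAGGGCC, was that of 4 members, and the H4c9 core was found in H4c9 alone among the members. H2bc8 was higher in mutant platelets and the other genes shown were lower, so the same core stood in members of either direction.

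The 4 classes did not move as 1 group. In mutant platelets 11 of 16 H2B genes were higher and 2 lower, whereas 7 of 14 H2A genes were lower and 1 higher, and 7 of 9 H4 genes were lower and 0 higher. Of the 5 H3 genes, 1 was higher and 2 were lower. These calls are from edgeR's quasi-likelihood test over all 9822 genes at an adjusted p of 0.05. Together 13 members rose, 18 fell and 13 did not pass, while of all genes tested 12.9% were called higher and 9.16% lower, 22.1% in either direction. The median log2 fold change, mutant over wild type, was 0.73 for H2B, -0.72 for H2A, -0.83 for H4 and 0.16 for H3, beside -0.04 over all genes. Called changes of more than 2-fold were found for 7 members, H2ac6, H2bc12, H2bc21, H3c14, H3c15, H4c1 and H4c3, beside 3.92% of all genes. For 34 of the 44 members no mutant library lay within the wild-type range or the reverse, beside 36.3% of all genes, and of these 13 were higher and 21 lower in mutants. With the batch as a block, 13 members rose and 23 fell, beside 22.0% and 18% of all genes. Without batch 1, 12 members rose and 16 fell, among them 11 H2B genes higher, 7 H2A genes lower and 5 H4 genes lower. A correction for transcript length moved 9 called members by more than 1.5 times, to log2 fold changes of -0.47 for H2ac19, -0.43 for H2ac20, -0.47 for H2ac13, -0.29 for H2bc18, 0.80 for H3c4, -0.62 for H4c12, -0.58 for H4c11, -0.51 for H4c2 and -0.19 for H4c8. Of these, H2ac13, H2bc18, H4c2 and H4c8 lost their calls with it.

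**Figure D1:**
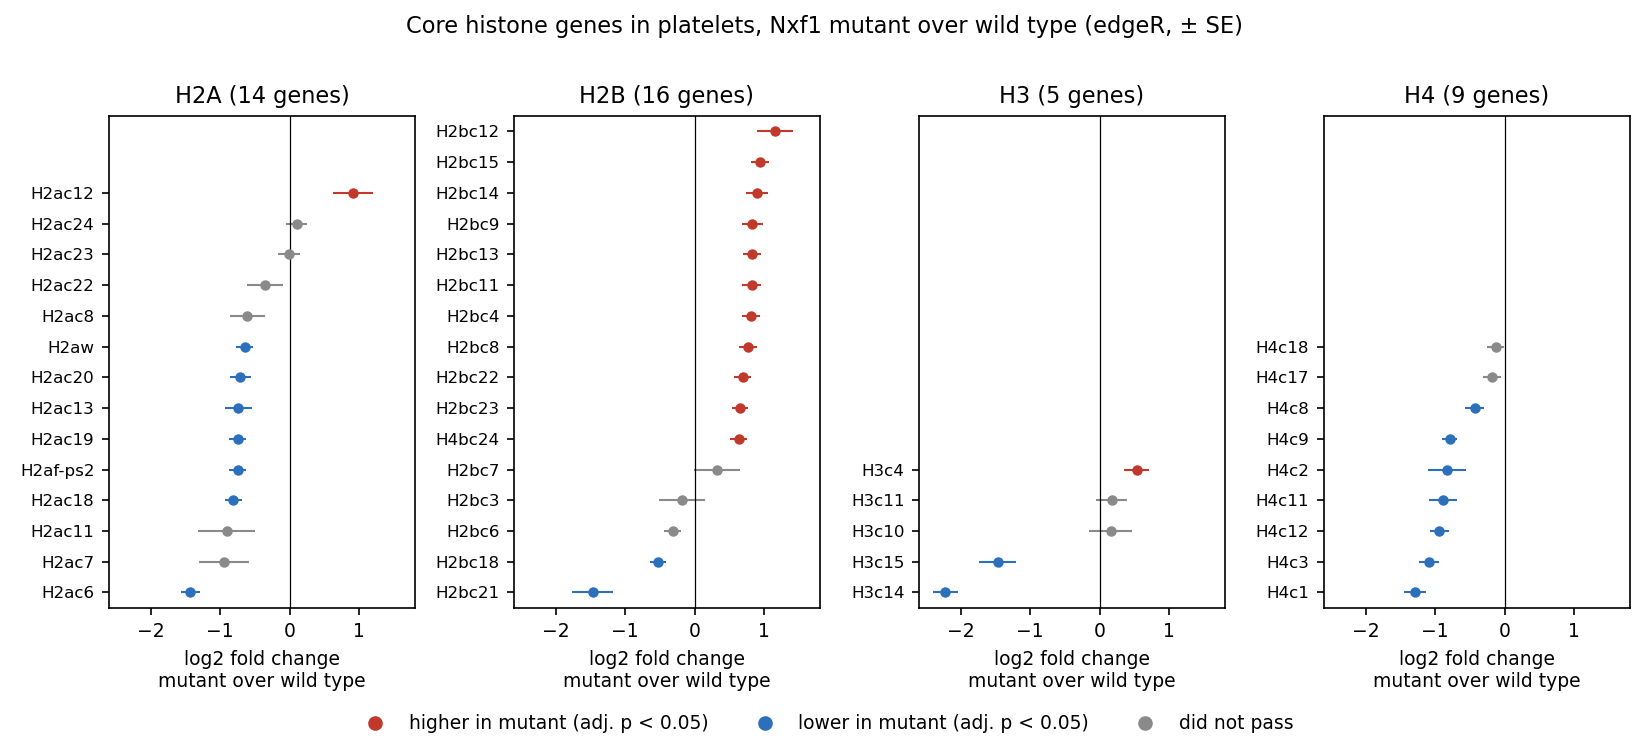
Log2 fold change (mutant over wild type, edgeR, x axis) of each of the 44 core histone genes, in 1 panel per class, with bars of 1 SE and colours for the call at an adjusted p of 0.05. In the H2B panel 11 genes lie to the right of 0 with a call, and in the H4 panel 9 of 9 genes lie to its left, 7 with a call.

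In a pool, fewer cells with a transcript and less of it per cell cannot be told apart. Summed over its members, H2B had 3044, 2995 and 2579 CPM, the share of a library's counts put on 1 fixed scale and adjusted by TMM, in mutant batches 1, 2 and 3, against 1941, 1977 and 1571 CPM in wild-type batches 1, 2 and 3. The H2B sums did not overlap, and the mutant mean was 1.57-fold the wild-type mean (2873 ± 256 CPM in mutants and 1830 ± 225 CPM in wild type, SD, n = 3 each). H2A summed to 500, 492.8 and 440.2 CPM in mutant platelets, against 908.1, 831.0 and 697.9 CPM in wild type, a log2 ratio of -0.77. H4 summed to 544.5, 593.4 and 538.5 CPM in mutants, against 871.3, 873.6 and 736.3 CPM in wild type, a log2 ratio of -0.57 that was -0.30 with a correction for transcript length. Neither the H2A nor the H4 sums overlapped between genotypes. H3 had the lowest sum, with 8.76, 8.25 and 8.75 CPM in mutants against 14.3, 14.3 and 12.4 CPM in wild type, again without overlap. Only 5 of the 12 annotated H3 genes were listed. The sum over all 44 members overlapped, at 3918 ± 305 CPM in mutants and 3483 ± 403 CPM in wild type (SD, n = 3 each). Within batches 1, 2 and 3 its log2 ratio was 0.13, 0.15 and 0.24, so it was higher in the mutant library of each batch. The log2 ratios within batches 1, 2 and 3 were 0.65, 0.60 and 0.71 for H2B, -0.86, -0.75 and -0.66 for H2A, -0.68, -0.56 and -0.45 for H4, and -0.71, -0.79 and -0.51 for H3. These sums are descriptions and carry no test. The labels name polyA RNA, so transcripts without a polyA tail may have been missed. The sums, and ratios between them, are therefore not levels of all histone mRNA.

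**Figure D2:**
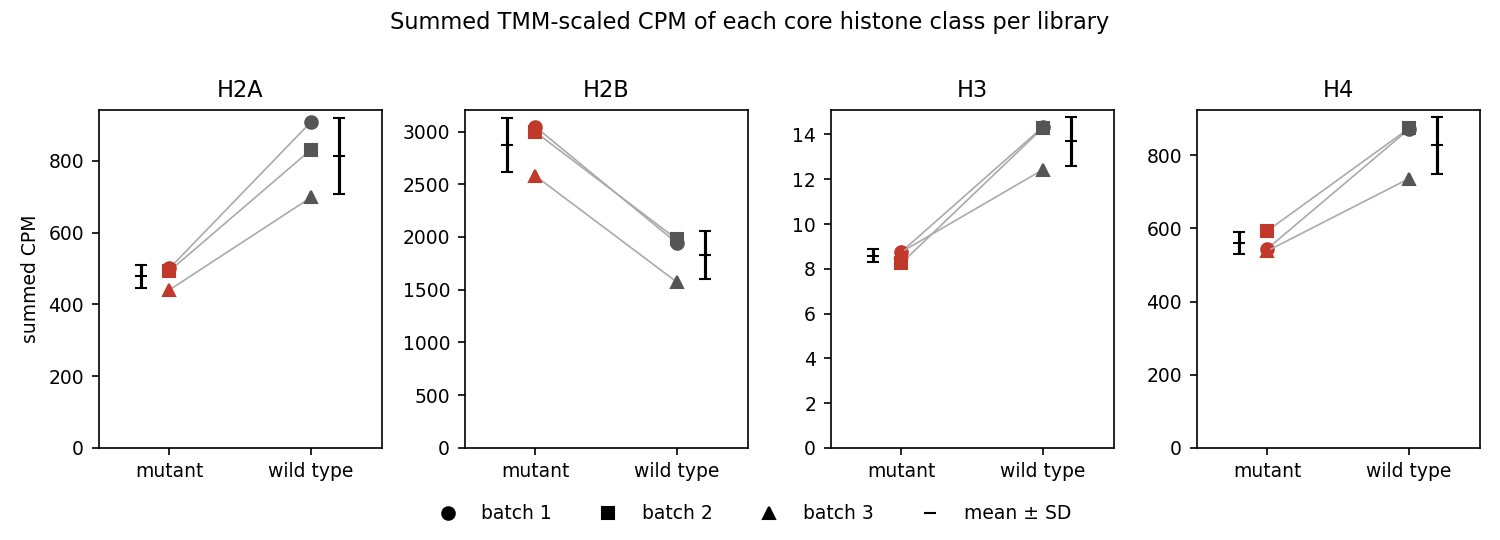
Summed TMM-scaled CPM (y axis, from 0, a separate scale per panel) of each class in each library, with lines joining the pools of 1 batch and bars for the mean ± SD of 3 libraries. In each batch H2B was higher and H2A, H3 and H4 were lower in the mutant library.

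A single gene carried much of 3 of these sums. H2bc4 made up 49.2% of the H2B sum in mutants and 43.9% in wild type, and without it the H2B log2 ratio was 0.51. H4c9 made up 49.3% of the H4 sum in mutants and 57.4% in wild type, and without it the H4 log2 ratio was -0.31. H3c14 made up 16.2% of the H3 sum in mutants and 47.6% in wild type, and without it the H3 log2 ratio was 0.00. The H3 sum therefore rested on H3c14. In H2A, H2ac18 made up 34.9% of the sum in mutants and 36.0% in wild type. H2ac18, its copy H2ac19 and the pseudogene H2af-ps2 averaged 167, 127 and 121 CPM in mutants, of a mean H2A sum of 477.6 CPM. In wild type they averaged 292, 214 and 203 CPM, of 812.3 CPM. The H2A sum, and any ratio taken with it, therefore rested largely on these 3 genes, whose annotated transcripts share sequence.

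Scaling between libraries cancels in a ratio taken within a library. H2B over H4 was 5.59, 5.05 and 4.79 in mutant libraries, against 2.23, 2.26 and 2.13 in wild type. H2B over H2A was 6.09, 6.08 and 5.86 in mutants, against 2.14, 2.38 and 2.25 in wild type. Both ratios of CPM sums were separated by far more than the spread within a genotype, with log2 ratios of 1.22 and 1.41 between genotypes. H2A over H4 differed less, at 0.918, 0.831 and 0.817 in mutants against 1.04, 0.951 and 0.948 in wild type, a log2 ratio of -0.20 that was -0.41 without the most abundant member of each class. H3 over H4 was 0.0161, 0.0139 and 0.0163 in mutants and 0.0165, 0.0164 and 0.0169 in wild type, a log2 ratio of -0.10 that was 0.44 on a scale of CPM per kilobase.

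H2B pairs with H2A in the nucleosome, and its genes gave the rises. H2bc4 was the most abundant member per kilobase, with a mean of 1940 CPM per kilobase in mutants and 1100 in wild type. It had 1530, 1430 and 1280 CPM in mutant batches 1, 2 and 3, against 874, 862 and 677 CPM in wild type. Every mutant library was above every wild-type library, and the log2 fold change was 0.81 ± 0.13 (SE, edgeR adjusted p = 0.000126, higher in 3 of 3 batches). H2bc15 had 124, 133 and 99.6 CPM in mutants, against 64.2, 66.6 and 55.3 CPM in wild type, with a log2 fold change of 0.94 ± 0.13 (edgeR adjusted p = 2.49e-05). H2bc13 had 161, 158 and 128 CPM in mutants, against 86.1, 92.2 and 72.9 CPM in wild type, with a log2 fold change of 0.83 ± 0.13 (edgeR adjusted p = 8.08e-05). Neither gene overlapped between genotypes. H4bc24 had 364, 387 and 328 CPM in mutants and 240, 252 and 204 CPM in wild type (0.63 ± 0.12, edgeR adjusted p = 0.000537). H2bc23, in the same cluster, had 357, 377 and 309 CPM in mutants and 230, 242 and 191 CPM in wild type (0.65 ± 0.12, edgeR adjusted p = 0.000522). H4bc24 and H2bc23 have the same coding sequence, and their counts stayed at a ratio of 1.02 to 1.07 in every library, so their reads cannot be assigned to 1 copy from these files. The other called rises were H2bc8 (log2 fold change 0.77), H2bc22 (0.69), H2bc11 (0.82), H2bc9 (0.83), H2bc14 (0.90) and H2bc12 (1.16), and none of the 6 overlapped between genotypes.

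Against their class, H2bc18 and H2bc21 fell. H2bc18 had 89.8, 96.1 and 89.8 CPM in mutants, against 131, 151 and 116 CPM in wild type, with a log2 fold change of -0.53 ± 0.12 (edgeR adjusted p = 0.00276). Its call was lost without batch 2 (adjusted p = 0.0844) and with a correction for transcript length (0.0938). H2bc21, which encodes the H2B variant known in mouse from olfactory neurons, had 0.447, 0.449 and 0.445 CPM in mutants, against 1.43, 1.37 and 0.969 CPM in wild type. Its log2 fold change was -1.47 ± 0.30 (edgeR adjusted p = 0.00121), from 11 or 12 counts per mutant library and 30 to 37 per wild-type library. Both genes lie on chromosome 3, and neither shared a 50-base window of its transcripts with another core histone gene. H2bc6 had a log2 fold change of -0.32 (edgeR adjusted p = 0.0581) and was called lower with the batch as a block (1.87e-05). H2bc3 (-0.18, adjusted p = 0.751) and H2bc7 (0.32, adjusted p = 0.556) did not pass and overlapped between genotypes.

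H2A is the partner of H2B in the nucleosome, and its 3 most abundant genes by CPM were all lower in mutants. H2ac18 had 176, 173 and 152 CPM in mutants, against 329, 299 and 249 CPM in wild type, with a log2 fold change of -0.81 ± 0.12 (edgeR adjusted p = 7.01e-05). H2ac19, which has the same coding sequence, had 135, 129 and 118 CPM in mutants, against 240, 217 and 185 CPM in wild type (-0.75 ± 0.12, edgeR adjusted p = 0.000132). Neither gene overlapped between genotypes, and summed as 1 gene they fell by 0.78 on the log2 scale (edgeR adjusted p = 0.000108). The pseudogene H2af-ps2 had 129, 120 and 113 CPM in mutants, against 232, 201 and 178 CPM in wild type (-0.75 ± 0.12, edgeR adjusted p = 0.000132). Its counts were 0.926 to 0.966 of those of H2ac19 in every library, and 67.6% of the 50-base windows of its annotated transcripts occur in another core histone gene, so its value is uncertain. Its longest annotated transcript has 339 bases, while the gene length beside its counts was 3480 bases. The share of windows therefore covers only a small part of the counted bases.

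H2ac6 had the lowest adjusted p of the class, with 12.1, 13.4 and 10.6 CPM in mutants against 33.2, 38.2 and 26.1 CPM in wild type. Its mutant libraries were all far below the wild-type ones, with a log2 fold change of -1.43 ± 0.14 (edgeR adjusted p = 6.86e-07), and only 11.6% of its windows were shared. H2aw (-0.65), H2ac20 (-0.71) and H2ac13 (-0.74) also fell without overlap, and H2ac13 lost its call with the length correction (adjusted p = 0.0547). H2ac12 was the exception, with 0.857, 1.27 and 1.52 CPM in mutants against 0.657, 0.707 and 0.581 CPM in wild type. Its rise of 0.91 ± 0.29 (edgeR adjusted p = 0.0295) rested on 23 to 41 counts per mutant library and was lost in 7 of 9 fits that left out a library or batch, with an adjusted p of up to 0.196. H2ac23 (-0.01), H2ac24 (0.10) and H2ac22 (-0.36) did not pass and overlapped between genotypes. H2ac8 (-0.61, adjusted p = 0.0897), H2ac7 (-0.95, 0.0709) and H2ac11 (-0.91, 0.126) did not pass the edgeR test either. With the batch as a block these 3 were called lower, at adjusted p-values of 0.0234, 0.0146 and 0.0382.

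H4 forms a tetramer with H3 at the centre of the nucleosome, and its genes fell or did not pass. H4c9, the most abundant H4 gene by CPM, had 293, 270 and 264 CPM in mutants, against 510, 492 and 423 CPM in wild type. Every mutant library was below every wild-type library, with a log2 fold change of -0.79 ± 0.11 (edgeR adjusted p = 5.36e-05). H4c1 had 4.81, 5.88 and 4.64 CPM in mutants, against 12.7, 14.8 and 10.2 CPM in wild type (-1.29 ± 0.16, edgeR adjusted p = 8.89e-06). H4c3 had 11.7, 14.1 and 13.6 CPM in mutants, against 29.6, 32.0 and 22.3 CPM in wild type (-1.09 ± 0.14, edgeR adjusted p = 1.35e-05). Both were at less than 0.5 of their wild-type level, with fitted folds of 0.408 and 0.471. H4c12 (-0.94) and H4c11 (-0.89) also fell without overlap. H4c2 (-0.83, adjusted p = 0.0323) and H4c8 (-0.43, adjusted p = 0.0325) were called lower by edgeR, but lost the call in 6 and 5 of 9 fits with a library or batch left out, and H4c8 overlapped between genotypes.

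The next most abundant H4 genes did not pass. H4c18 had 102, 137 and 116 CPM in mutants and 133, 138 and 118 CPM in wild type, with a log2 fold change of -0.13 (edgeR adjusted p = 0.496). H4c17 had 97.8, 132 and 113 CPM in mutants and 129, 143 and 116 CPM in wild type, with a log2 fold change of -0.18 (edgeR adjusted p = 0.356). Both overlapped between genotypes, and H4c17 was called lower with the batch as a block (adjusted p = 0.0189). The 2 genes share their coding sequence, and summed as 1 gene they had a log2 fold change of -0.16 (edgeR adjusted p = 0.415).

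H3 had few reads, and its 2 called falls were on chromosome 3, in copies with the same coding sequence. On chromosome 13, 1 of 3 H3 genes was called higher and 2 did not pass. H3c14, on chromosome 3, had 1.57, 1.23 and 1.37 CPM in mutants, against 7.0, 6.40 and 6.14 CPM in wild type. This was the largest fitted change among the 44 members, a log2 fold change of -2.22 ± 0.18 (edgeR adjusted p = 6.28e-08), from 30 to 42 counts per mutant library and 154 to 190 per wild-type library. H3c15, beside it on chromosome 3, had 0.932, 0.735 and 0.556 CPM in mutants, against 2.28, 2.24 and 1.68 CPM in wild type (-1.47 ± 0.26, edgeR adjusted p = 0.000382). The 2 copies share a coding sequence, and summed as 1 gene they fell by 2.01 on the log2 scale (edgeR adjusted p = 8.48e-08). H3c4, on chromosome 13, had 3.24, 3.27 and 3.41 CPM in mutants, against 2.13, 2.37 and 2.36 CPM in wild type. Its rise of 0.53 ± 0.18 (edgeR adjusted p = 0.0415) was lost in 8 of 9 fits with a library or batch left out, with an adjusted p of up to 0.27. H3c11 had 1.83, 2.41 and 2.52 CPM in mutants and 2.09, 2.29 and 1.65 CPM in wild type, and did not pass (0.17, adjusted p = 0.626). H3c10 (0.16, adjusted p = 0.773) did not pass either, and the libraries of both genes overlapped between genotypes.

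Mouse core histone genes lie in a large cluster on chromosome 13 and smaller ones elsewhere. All 7 listed members on chromosome 3 were lower in mutants: 3 H2A, 2 H2B and 2 H3 genes, with log2 fold changes between -2.22 and -0.53. H2aw on chromosome 11 was lower as well. All 13 rises were on chromosome 13, where 10 of the 36 listed members fell. There, 11 of 14 H2B genes rose and 0 fell, 1 of 10 H2A genes rose and 3 fell, 1 of 3 H3 genes rose, and 7 of 9 H4 genes fell. The fall of H2af-ps2 is counted among these, but that pseudogene starts at base 51200084, outside the cluster. The other listed members on chromosome 13 lie between bases 21715711 and 23761249. The opposite moves of H2B and H4 were therefore found within 1 cluster, and whether position had a part in the falls on chromosome 3 was not tested.

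**Figure D3:**
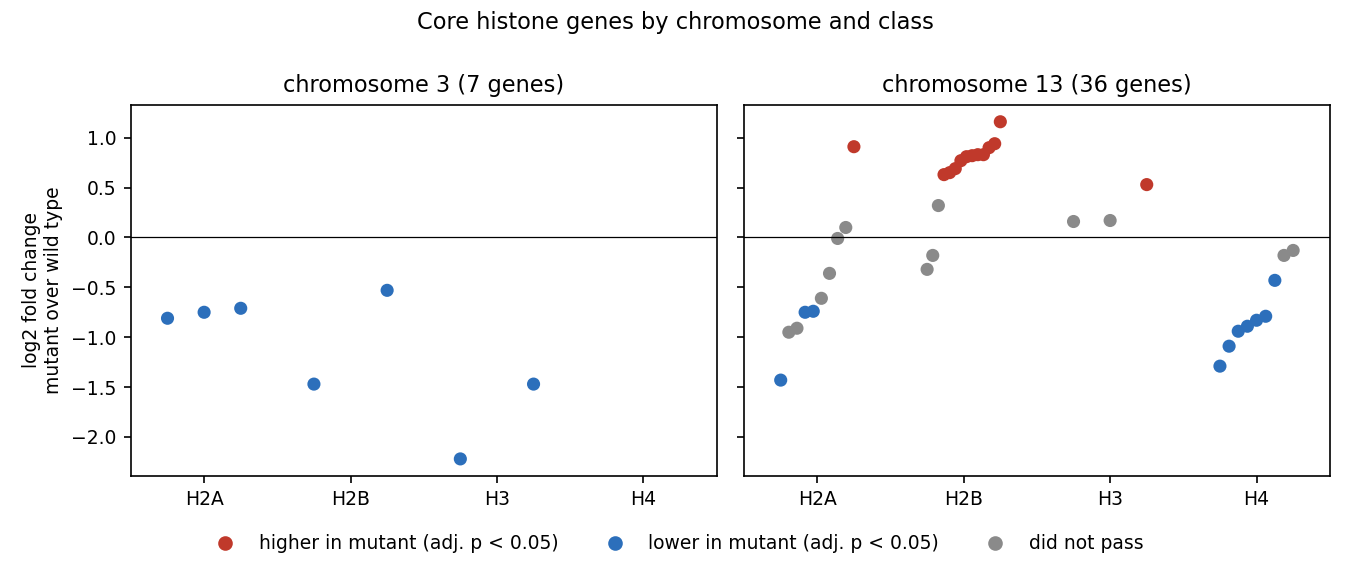
Log2 fold change (mutant over wild type, y axis) of the members on chromosome 3 and chromosome 13, by class along the x axis, coloured by call. Points on chromosome 3 all lie below 0, while on chromosome 13 H2B genes lie mostly above 0 and H4 genes all below it. H2aw on chromosome 11 is not drawn.

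Many H2A and H2B genes stand back to back, with their transcription starts facing away from each other across a shared promoter region. Both genes were listed in 10 such pairs, with 167 to 267 bases between the starts. In 9 of 10 pairs the H2B gene had a higher log2 fold change than its H2A neighbour, and in 8 of them this held in all 3 batches. H2ac23 and H2ac24 have the same coding sequence, as do H2bc23 and H4bc24. The pairs H2bc23 with H2ac23 and H4bc24 with H2ac24 may therefore not be separate instances. The median difference was 1.15 on the log2 scale, and the difference within a pair was not tested. H2bc4 (0.81) and H2ac6 (-1.43) were 2.24 apart with calls in opposite directions, across a gap of 239 bases. H2bc13 (0.83) and H2ac13 (-0.74) also had opposite calls, across 228 bases. In 5 pairs the H2B gene was called higher and the H2A gene was not called. H2bc12 (1.16) and H2ac12 (0.91) were both called higher. H2bc21 (-1.47) and H2ac20 (-0.71), on chromosome 3, were both called lower and formed the pair in which H2B lay below H2A.

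**Figure D4:**
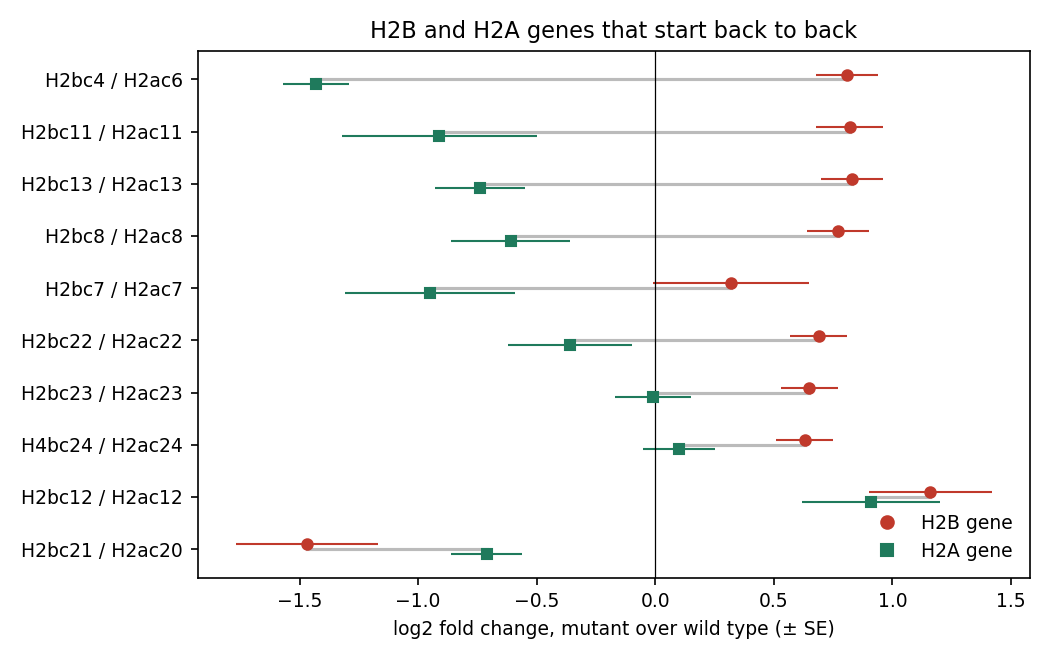
Log2 fold change (mutant over wild type, x axis, bars of 1 SE) of the H2B gene (circle) and the H2A gene (square) of each of 10 back-to-back pairs, ordered by their difference. The circle lies to the right of the square in 9 pairs and to its left in H2bc21 and H2ac20.

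The region shared by a pair is shown for both oppositely called pairs, for the pair called lower and for the pair called higher, and H4c9 is added as an H4 gene. Each sequence runs from 250 bases before to 50 bases after the start of the named gene in the RefSeq table of GRCm38.p6, on the strand of that gene, 5′ to 3′, which is the plus strand for H2ac13 and the minus strand for the others. Capitals mark the octamer ATGCAAAT, the CCAAT box CCAAT and the TATA box TATAAA, or their reverse complements. The positions are chr13:23683910-23684209 for H2ac6, which faces H2bc4, chr13:21716162-21716461 for H2ac13, which faces H2bc13, chr3:96220831-96221130 for H2ac20, which faces H2bc21, chr13:22035594-22035893 for H2ac12, which faces H2bc12, and chr13:22041313-22041612 for H4c9.
H2ac6: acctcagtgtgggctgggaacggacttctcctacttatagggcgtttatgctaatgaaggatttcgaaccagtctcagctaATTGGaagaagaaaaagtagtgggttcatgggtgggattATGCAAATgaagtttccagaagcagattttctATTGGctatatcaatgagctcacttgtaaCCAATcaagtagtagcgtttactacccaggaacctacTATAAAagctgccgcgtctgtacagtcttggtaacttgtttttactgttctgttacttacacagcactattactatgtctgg
H2ac13: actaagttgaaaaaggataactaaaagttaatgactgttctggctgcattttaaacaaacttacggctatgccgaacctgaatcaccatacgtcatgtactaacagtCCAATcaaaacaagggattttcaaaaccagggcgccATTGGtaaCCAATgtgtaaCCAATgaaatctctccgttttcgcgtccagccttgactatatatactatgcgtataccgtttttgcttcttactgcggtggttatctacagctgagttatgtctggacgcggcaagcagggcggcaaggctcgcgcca
H2ac20: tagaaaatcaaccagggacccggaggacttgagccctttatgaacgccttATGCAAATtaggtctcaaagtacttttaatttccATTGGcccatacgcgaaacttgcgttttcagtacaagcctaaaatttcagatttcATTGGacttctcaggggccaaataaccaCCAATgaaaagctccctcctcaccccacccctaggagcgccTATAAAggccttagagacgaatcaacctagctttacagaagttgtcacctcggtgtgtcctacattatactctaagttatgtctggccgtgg
H2ac12: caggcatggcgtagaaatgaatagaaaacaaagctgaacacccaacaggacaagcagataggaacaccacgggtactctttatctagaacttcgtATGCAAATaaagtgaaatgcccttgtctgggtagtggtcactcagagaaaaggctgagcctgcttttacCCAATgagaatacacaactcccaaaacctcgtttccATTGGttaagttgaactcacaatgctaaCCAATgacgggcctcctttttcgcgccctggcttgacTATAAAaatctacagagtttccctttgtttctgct
H4c9: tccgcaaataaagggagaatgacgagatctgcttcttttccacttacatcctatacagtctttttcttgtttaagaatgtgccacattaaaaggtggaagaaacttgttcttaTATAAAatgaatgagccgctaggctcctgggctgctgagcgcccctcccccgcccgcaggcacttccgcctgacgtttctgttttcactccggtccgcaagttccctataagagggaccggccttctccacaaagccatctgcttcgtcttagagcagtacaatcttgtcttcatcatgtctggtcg
The H2ac6, H2ac20 and H2ac12 windows each hold an octamer, several CCAAT boxes and a TATA box. The H2ac13 window holds CCAAT boxes but neither an octamer nor a TATA box of these letters, and the H4c9 window holds 1 TATA box of these motifs. RefSeq promoters were matched for 41 of 44 members, without H2bc4, H2bc21 and H2af-ps2, and searched on both strands. The windows of back-to-back genes overlap, so 1 site can be counted for both an H2A and an H2B gene. The octamer, a motif known from H2B promoters, stood in 5 of 14 H2B, 5 of 13 H2A, 0 of 5 H3 and 0 of 9 H4 promoters, beside 1.75% of 27025 mouse promoters of the same length. CCAAT stood in all 14 H2B, 13 H2A and 5 H3 promoters and in 2 of 9 H4 promoters, beside 37.9% of all promoters. TATAAA stood in 6 of 14 H2B, 7 of 13 H2A, 3 of 5 H3 and 6 of 9 H4 promoters, beside 14.2% of all. A match of letters is a description of the window and not a site of binding.

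Members of a class are close in sequence, which limits what a count of 1 copy means. Between members with coding sequences of equal length, the median identity was 98.2% in H2A (without H2ac12, H2ac20 and H2af-ps2, which had no such partner), 97.6% in H2B, 94.6% in H3 and 95.5% in H4, and the counting of reads that match several genes was not given in the sources used here. In 15 members at least 80% of the 50-base windows of their transcripts also occur in another core histone gene. Among these, 5 rose (4 H2B genes and H2ac12) and 3 fell (H2ac13, H2ac18 and H2ac19). In 11 members under 30% of windows are shared, and of these 3 rose (H2bc4, H2bc9 and H3c4) and 7 fell (H2ac6, H2aw, H2bc18, H2bc21, H4c3, H4c9 and H4c11). The windows cover whole GENCODE transcripts, while the gene lengths beside the counts were shorter for some members. They were 381 bases for H2bc9 (longest transcript 1679), 411 for H3c4 (1249), 312 for H4c3 (820) and 312 for H4c11 (774). They were also shorter for H2bc4, at 728 bases (1156), H4c9, at 537 (727), and H2aw, at 1990 (2146). H2bc4 and H4c9 were close to the cut, with 29.4% and 28.9% of windows shared. Shares for these genes therefore include bases beyond that length and do not show how far their counted bases are unique. By class, all 4 H2B genes with at least 80% of windows shared rose, with a median log2 fold change of 0.74, while of the 5 H2B genes with under 30% shared 2 rose, 2 fell and 1 did not pass, with a median of -0.32. The 2 H2A and 3 H4 genes with under 30% shared all fell. The part of shared reads in these results was not tested. The class sums given above pool the copies of a class, but a read counted for each matching copy would enter them more than once.

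The annotated transcript structure was set beside the calls. In 12 members the longest reach of an annotated transcript past the stem-loop exceeded 100 bases, and 3 of these rose and 7 fell. The risers were H2bc8, H2bc9 and H3c4, and those that fell were H2ac6, H2aw, H3c14, H3c15, H4c3, H4c9 and H4c11. In 17 members annotated transcripts end within 100 bases of the stem-loop, and 4 rose (H2bc11, H2bc12, H2bc14 and H2bc22) and 5 fell (H2ac18, H2ac19, H2ac20, H4c2 and H4c8). In 15 members no annotated transcript holds the motif, and 6 rose (H2ac12, H2bc4, H2bc13, H2bc15, H2bc23 and H4bc24) and 6 fell (H2ac13, H2af-ps2, H2bc18, H2bc21, H4c1 and H4c12). For H2ac13, H2ac22, H2bc13, H2bc15, H2bc18, H3c10, H3c11 and H4c12 the annotated transcript is the coding sequence with its stop codon, 312 to 411 bases. A stem-loop beyond it could not be found, so these genes are not shown to lack one. Only 5 members, all H2B, have an annotated transcript with more than 1 exon, and 4 of them rose (H2bc4, H2bc22, H2bc23 and H4bc24), while 7 of the 11 H2B genes with 1 exon rose as well.

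Genes that handle histone mRNA and protein were counted in the same fit, in which 22.1% of all genes were called. Of 37 listed genes for histone mRNA processing, export and decay, 1 rose and 3 fell, with a median log2 fold change of -0.22, and with the batch as a block, where 22.0% of all genes rose and 18% fell, 3 rose and 8 fell. Ncbp2, a subunit of the nuclear cap-binding complex, averaged 1.57 ± 0.328 CPM in mutants and 3.08 ± 0.395 CPM in wild type (SD, n = 3 each). It had a log2 fold change of -0.97 ± 0.22 (edgeR adjusted p = 0.00262). Tut7, a terminal uridylyltransferase, rose (0.37, adjusted p = 0.0213), and Cpsf1, a subunit of the cleavage and polyadenylation factor, fell (-0.52, adjusted p = 0.0287), both by edgeR. The fourth call was a fall of Eri1, the exonuclease that trims the histone stem-loop (-0.39, edgeR adjusted p = 0.0304), a gene outside the rule for naming that was picked after its value was seen. Tut7, Cpsf1 and Eri1 lost their calls in 7, 6 and 4 of 9 fits with a library or batch left out. Slbp averaged 1.39 ± 0.15 CPM in mutants and 1.75 ± 0.375 CPM in wild type and did not pass (-0.33 ± 0.24, edgeR adjusted p = 0.356). Nxf1 itself averaged 3.29 ± 0.894 CPM in mutants and 3.73 ± 1.05 CPM in wild type and did not pass (-0.19 ± 0.22, edgeR adjusted p = 0.604). Counts per gene do not separate the mutant from the wild-type allele, so they do not check the genotype.

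Of 29 histone chaperone and nuclear import genes, 0 rose and 2 fell, the chaperones Npm1 (-0.51, adjusted p = 0.0124) and Nap1l1 (-0.34, adjusted p = 0.0325), by edgeR, and the median was -0.28. With the batch as a block 1 rose and 11 fell, beside 22.0% and 18% of all genes. Both lost their calls in some fits with a library or batch left out, 2 of 9 for Npm1 and 7 of 9 for Nap1l1. Of 23 genes of S phase and the cell cycle, E2f1 rose (0.71, adjusted p = 0.0384) and Tpx2 fell (-0.76, adjusted p = 0.0312), by edgeR, each losing the call in 7 of 9 such fits. With the batch as a block 1 gene of this list rose and 4 fell. The proliferation genes Mki67 (0.37, adjusted p = 0.398) and Top2a (0.31, adjusted p = 0.519) did not pass the edgeR test. Of 5 listed linker H1 genes, whose proteins bind the DNA between nucleosomes, H1f2 (1.08), H1f3 (0.74) and H1f4 (0.90) rose and none fell. H1f3 and H1f4 lost their calls in 6 and 7 of 9 fits with a library or batch left out, and H1f2 in 0. Among 8 replacement variants, which are used outside S phase, H2aj fell (-1.14) and H2ax rose (0.70), and with the batch as a block 1 rose and 2 fell.

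Markers of platelets and of other blood cells were read in the same fit, in which 12.9% of all genes rose and 9.16% fell. With the batch as a block, 22.0% of all genes rose and 18% fell. All 16 platelet markers were listed and summed to 52020 to 56090 CPM in mutants and 40530 to 48590 CPM in wild type, so platelet transcripts were abundant in every library. Of these, 8 rose and 2 fell, among them a fall of Gp1ba (-1.08) and a rise of Vwf (0.75). All 12 B cell markers were listed, and 4 fell and 0 rose, led by Igkc (-0.50), H2-Aa (-0.48) and Cd79a (-0.54). H2-Aa and Cd79a each lost the call in 1 of 9 fits with a library or batch left out. The B cell markers summed to 286.5 to 362.5 CPM in mutants and 366.9 to 498.4 CPM in wild type, and with the batch as a block 9 fell. The 11 erythroid markers summed to 4442 to 32230 CPM in mutants and 4631 to 36280 CPM in wild type, with 1 rise and 0 falls, and with the batch as a block 4 rose and 2 fell. The high ends are batch 1 in both genotypes. Hba-a1, an alpha globin gene, had 19100, 2700 and 3010 CPM in mutant batches 1, 2 and 3, against 21600, 2900 and 2890 CPM in wild type. The 8 listed monocyte markers summed to 4137 to 4466 CPM in mutants and 2473 to 3176 CPM in wild type, and F13a1 (2340 CPM in mutants and 1450 in wild type) and Lyz2 (1910 CPM in mutants and 1360 in wild type) made up most of the sum. F13a1 (0.69) and Lyz2 (0.49) were higher, Fcgr1 (-0.67) and Ly6c2 (-0.76) were lower, and Csf1r, Ccr2, Itgam and Adgre1 did not pass. Lyz2 lost its call in 4 and Ly6c2 in 8 of 9 fits with a library or batch left out. The 9 listed T cell markers and 4 listed neutrophil markers gave 0 calls by edgeR, and with the batch as a block 2 and 1 of them fell. Their sums were 20.1 to 24.2 CPM in mutants and 23.8 to 30 CPM in wild type for T cells, and 12.8 to 19.9 CPM in mutants and 13 to 18.2 CPM in wild type for neutrophils. Among markers not listed were Cd3e, Cd5, Ly6g, Mpo, Elane and Cd14. The part of these other cells in the histone results was not tested.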

How the data were processed

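Whole-number counts per gene, with gene lengths beside them, were deposited for 6 platelet libraries, 3 per genotype, per the file headers. The submitters' processing notes name CASAVA 1.8.2, Subread, featureCounts and mm10. What each tool did, how reads that match several genes were counted and whether strand was used were not given in the sources used here.

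Counts of all 9822 genes entered edgeR 4.0.16, run in R 4.3.3 (TMM scaling, robust quasi-likelihood fit, genotype as the only term, two-sided, Benjamini-Hochberg adjusted p of 0.05 over all genes). The filter filterByExpr removed 0 genes. CPM values use TMM-scaled totals, and class sums and ratios were made from them without a test. The labels put 1 mutant and 1 wild-type pool in each batch, so the batch pairs the libraries. Across genes, deviations from group means correlated at 0.431, 0.271 and 0.482 within batches and at most at -0.0104 between batches. Libraries of a genotype differed by more than sampling noise, with a mean chi-square per gene of at least 14.5. Other scalings were tried, besides DESeq2 1.42.0, limma-voom (limma 3.58.1), other filters, the batch as a block, a length correction (loess, span 0.5), each library or batch left out and an adjusted p of 0.01. Leaving out H2aw and H2af-ps2, summing identical copies and the alternatives for class ratios were added after the data were seen. Some of the fits were also run on simulated counts. These counts held no batch effect, so that run does not show how the fits behave with batches such as these.

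Names (9636 genes) and promoters were taken from RefSeq's GRCm38.p6 table, which is the assembly of mm10. Transcripts, coding sequences, exon numbers and stem-loops came from GENCODE for GRCm38. Values per library are given for the 3 most abundant members of each class by CPM, the 3 called members with the smallest p and called members that go against their class. From each gene list up to 3 called genes are named, besides Slbp, Nxf1, Mki67 and Top2a. Some genes that this rule takes are left out of the text. The members and lists were chosen with earlier results of these data known.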

Additional observations from a re-analysis of the deposited data

How the results depend on the processing

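Of the 31 called members, 25 kept their call and direction under every alternative that gave them a value, and 6 lost the call under at least 1 (H2ac12, H2ac13, H2bc18, H3c4, H4c2 and H4c8). Over 640 values, 594 kept their call, 46 lost it and 0 changed direction. The count of H2A genes higher was 0 with library size alone, DESeq2, DESeq2 with the replicate block, a mean CPM of at least 10 and an adjusted p of 0.01, and 2 with the replicate block and length correction. The count of H3 genes higher was 0 under those 5 settings, without the 10 most abundant genes and with upper-quartile factors, and 2 with the block and length correction. With a library or batch left out both counts ranged between 0 and 1. H2B genes lower numbered 1 with the length correction and 1 to 3 with a library or batch left out. H3 genes lower numbered 0 at a mean CPM of at least 10, which removes them from the test, and 1 with identical copies summed. H4 genes higher numbered 1 with the block and length correction. With the replicate block, members gave 13 higher and 23 lower, beside 22.0% and 18% of all genes. Class sums were 0.58 for H2B with library size alone. With the length correction they were -0.60 for H2A, 0.80 for H2B, -0.49 for H3 and -0.30 for H4. Without the most abundant member they were 0.51 for H2B, -0.31 for H4 and 0.00 for H3, which changed sign, and H3 was -0.08 in CPM per kilobase. The H2B sum ranged between 0.55 and 0.72 with a library or batch left out. The ratio of H2A to H4 was -0.29 with the length correction, -0.41 without the most abundant members, -0.22 in CPM per kilobase, and between -0.25 and -0.15 with a library or batch left out. H2B over H4 was 1.11 with the length correction and 0.84 without the most abundant members. H3 over H4 changed sign, to 0.34 without the most abundant members and 0.44 in CPM per kilobase. The cause of these shifts was not tested. With the replicate block the gene lists gave 3 higher and 8 lower (histone mRNA processing, export and decay), 1 and 11 (chaperones and import), 4 lower (S phase), 2 lower (replacement variants), 4 higher and 2 lower (erythroid), 9 lower (B cell), 2 lower (T cell) and 1 lower (neutrophil). Depth limits the H3 genes and the members below 1 CPM, where a library held as few as 3 counts.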
